A study of Homo sapiens with 6 samples.

Results

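The genes described here are 36 genes of N-linked glycosylation, chosen by name in the deposited count table of 37993 gene symbols, and all 36 were found in it. They fall into 3 stages: 9 genes of sugar nucleotide supply, 18 genes of dolichol-linked glycan assembly and 9 subunits of the oligosaccharyltransferase. RNA was sequenced from HEK293T cells, an easily transfected human embryonic kidney line. One library came from each of 6 cultures, so each group held 1 library. Of the 5 cultures that overexpressed ATF6, 4 carried a mutant allele: M67V (missense), N267star (nonsense), or one of the multiexon deletions ex2-3del and ex8-14del. The fifth carried the allele labelled wild type (WT), and the sixth culture was labelled non-transfected. The protocol text mentions an empty vector for the control, so whether that culture was mock-transfected is not settled. The authors' comparison sheet for the WT library has a number in its name that the labels do not explain, and nothing says if it encodes the whole protein. Alleles were delivered by lipofection, and the labels do not say which promoter drove them. All 6 cultures are of 1 cell line, which carries its own ATF6 gene, and the libraries were made from total RNA.

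N-linked glycans are built on the lipid dolichol at the endoplasmic reticulum (ER) membrane and are then moved as a block onto asparagines of nascent secretory proteins. UDP-N-acetylglucosamine and GDP-mannose feed the assembly, the ALG enzymes add the sugars one after another, and the oligosaccharyltransferase carries out the transfer. ATF6 sits in the ER membrane, and under ER stress its cytosolic part is cut free and acts as a transcription factor for ER chaperone genes.

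Levels are given as CPM, a gene's read count relative to the library's total count, with totals adjusted by trimmed-mean (TMM) factors. Brackets after a log2 ratio or a fold hold the exact 95% interval of 2 counts, which covers counting error only. With 1 library per group no test between conditions was possible, and the intervals say how far 2 libraries differ. In bulk RNA, fewer cells of a type and less RNA per cell cannot be told apart, and neither can a large change in some cells and a small one in all. A gene was called higher or lower at 1.2-fold, or at 1.5-fold, when the ratio reached that size and the interval excluded equality. Genes with at least 1 CPM in either library of a pair were compared, and all 36 members passed this in all 9 pairs. The gene bodies of 12 members overlap those of other expressed genes, which makes their counts less certain: PGM3, MPI, PMM2, GMPPB, MPDU1, DPAGT1, ALG1, ALG5, ALG11, ALG12, RPN2 and STT3A. Library totals lay between 16023926 and 16813314 counts. ATF6 stood at 1493 CPM in M67V, 713 in N267star, 1349 in ex2-3del, 2410 in ex8-14del and 1148 in WT, against 85.1 CPM in the non-transfected library. Comparisons between alleles were therefore not made at equal ATF6 RNA levels. The HEK293T markers VIM and NEFM stood between 548 and 611 CPM and between 133 and 154 CPM over the 6 libraries, while PAX2 was low, between 1.77 and 2.90 CPM. Of 6 markers of other cell types, PTPRC, CD3E, ALB, PECAM1 and DES stayed at or below 0.568 CPM, and COL1A1 stood between 27.3 and 35.2 CPM.

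A few promoter sequences are shown first, because one of them places a member beside a gene known as a target of the response. The ER stress response element (ERSE, the letters CCAAT, 9 bases of any kind and CCACG) is the site through which ATF6 acts together with NF-Y. It was searched on both strands in RefSeq windows (GRCh38.p14) from 250 bases before to 50 bases after each start, and windows matched 33 of the 36 members, not RPN1, STT3B and TUSC3. ERSE was found in 25 of 27305 genes (0.0916%) and in 1 of the 33 members, ALG12. CCACG lies inside both ERSE forms, and alone it was present in 24 of the 33 members (72.7%) and in 42.1% of all genes with a window. The elements ERSE-II (ATTGG, 1 base of any kind and CCACG, found in 0.0696% of genes) and UPRE (TGACGTGG, in 0.927%) matched 0 of the 33 members. A match is a description of letters and not a site shown to be bound. The element of ALG12 is set here beside the match in the promoter of HSPA5, the gene of the ER chaperone BiP, with capitals marking the whole element.
ALG12 element, chr22:49918554-49918572, minus strand: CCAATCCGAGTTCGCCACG
HSPA5 element, chr9:125241391-125241409, minus strand: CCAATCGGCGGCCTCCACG

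The ALG12 element lies between the start of ALG12, which encodes a mannosyltransferase of the ER lumen, and that of CRELD2, a secreted ER stress protein whose gene runs the other way. The 2 RefSeq starts are separated by 195 bases. The element occupies bases 134 to 116 before the ALG12 start and bases 80 to 62 before the CRELD2 start. The stretch between the starts is printed on the strand of ALG12, 5′ to 3′, with the element in capitals.
ALG12 to CRELD2, chr22:49918439-49918633, minus strand: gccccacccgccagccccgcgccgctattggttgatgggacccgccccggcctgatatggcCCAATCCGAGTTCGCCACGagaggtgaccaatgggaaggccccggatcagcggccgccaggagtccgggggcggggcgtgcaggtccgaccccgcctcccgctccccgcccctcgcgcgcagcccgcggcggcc

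The 150 bases before the most upstream RefSeq start are shown for GMPPB, the member past 1.5-fold in M67V, and for UAP1 and MAGT1, the members with the highest WT ratios, with any CCACG in capitals. STT3B, next in that order, had no window. The stretch of UAP1 holds no CCACG, and the matches that count UAP1 among the 24 members lie in the windows of its starts further downstream. None of the 3 windows held the ERSE.
UAP1, chr1:162561381-162561530, plus strand: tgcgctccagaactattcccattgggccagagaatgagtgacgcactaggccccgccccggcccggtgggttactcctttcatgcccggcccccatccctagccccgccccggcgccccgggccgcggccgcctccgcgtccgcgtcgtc
GMPPB, chr3:49723952-49724101, minus strand: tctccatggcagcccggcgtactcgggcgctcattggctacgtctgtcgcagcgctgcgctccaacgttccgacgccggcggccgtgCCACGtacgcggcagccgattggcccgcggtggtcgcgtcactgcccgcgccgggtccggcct
MAGT1, chrX:77895569-77895718, minus strand: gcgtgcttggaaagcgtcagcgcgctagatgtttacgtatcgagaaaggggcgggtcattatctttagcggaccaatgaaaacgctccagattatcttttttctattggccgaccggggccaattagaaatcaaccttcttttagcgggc

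Against non-transfected cells, a handful of the 36 genes were higher by small amounts in WT and M67V. In WT, 6 members were higher at 1.2-fold: GFPT1, UAP1, GMPPB, RPN1, STT3B and MAGT1. This is 16.7% of the members, where 5.5% of all 13187 genes compared were higher by as much, and 2 members (5.56%) were lower against 3.85% of all genes. In M67V, 6 members were higher at 1.2-fold, where 4.82% of all 13218 genes were, and 0 were lower against 1.92%. The 6 were UAP1, GMPPB, RPN1, STT3B and MAGT1 again, with ALG12 in place of GFPT1. All 36 members held at least 10 CPM, and among genes at that level the shares called higher at 1.2-fold were 5.57% in WT and 4.63% in M67V, and the shares called lower were 3.48% in WT and 1.4% in M67V.

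At 1.5-fold, 1 call was made over the 36 members and 9 pairs, GMPPB in M67V against non-transfected cells. Against non-transfected cells, the shares of all genes called higher and lower at that size were 2.07% and 0.635% in M67V, 0.419% and 0.799% in N267star, 0.616% and 0.608% in ex2-3del, 0.669% and 0.776% for ex8-14del, and 1.87% and 0.849% for WT. Against WT they were 0.628% and 0.499% in M67V, 0.539% and 1.96% in N267star, 0.706% and 1.78% in ex2-3del, and 0.682% and 1.73% in ex8-14del. For scale, HSPA5 was 6.04-fold higher in M67V and 6.50-fold higher in WT than in non-transfected cells. The median log2 ratio over the 36 members was 0.06 in M67V and 0.06 in WT, beside medians over all genes of -0.0024 and -0.0077. With total-count scaling the members' medians were 0.03 in M67V and 0.03 in WT.

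The nonsense and deletion alleles called fewer members. In N267star, 0 members were higher at 1.2-fold and 0 lower, where 2.66% and 3.67% of all genes were. In ex2-3del, 2 were higher (SRD5A3 and ALG14, against 2.01% of all genes) and 1 lower (PGM3, against 2.29%). In ex8-14del, 1 was higher (ALG14, against 2.46%) and 1 lower (PGM3, against 3.1%). Their medians over the 36 members were 0.08, 0.09 and 0.04, in the order N267star, ex2-3del and ex8-14del, and the medians over all genes were 0.0002, -0.0028 and 0.0014. All 5 comparisons share 1 non-transfected library, so they do not repeat each other independently.

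**Figure D1:**
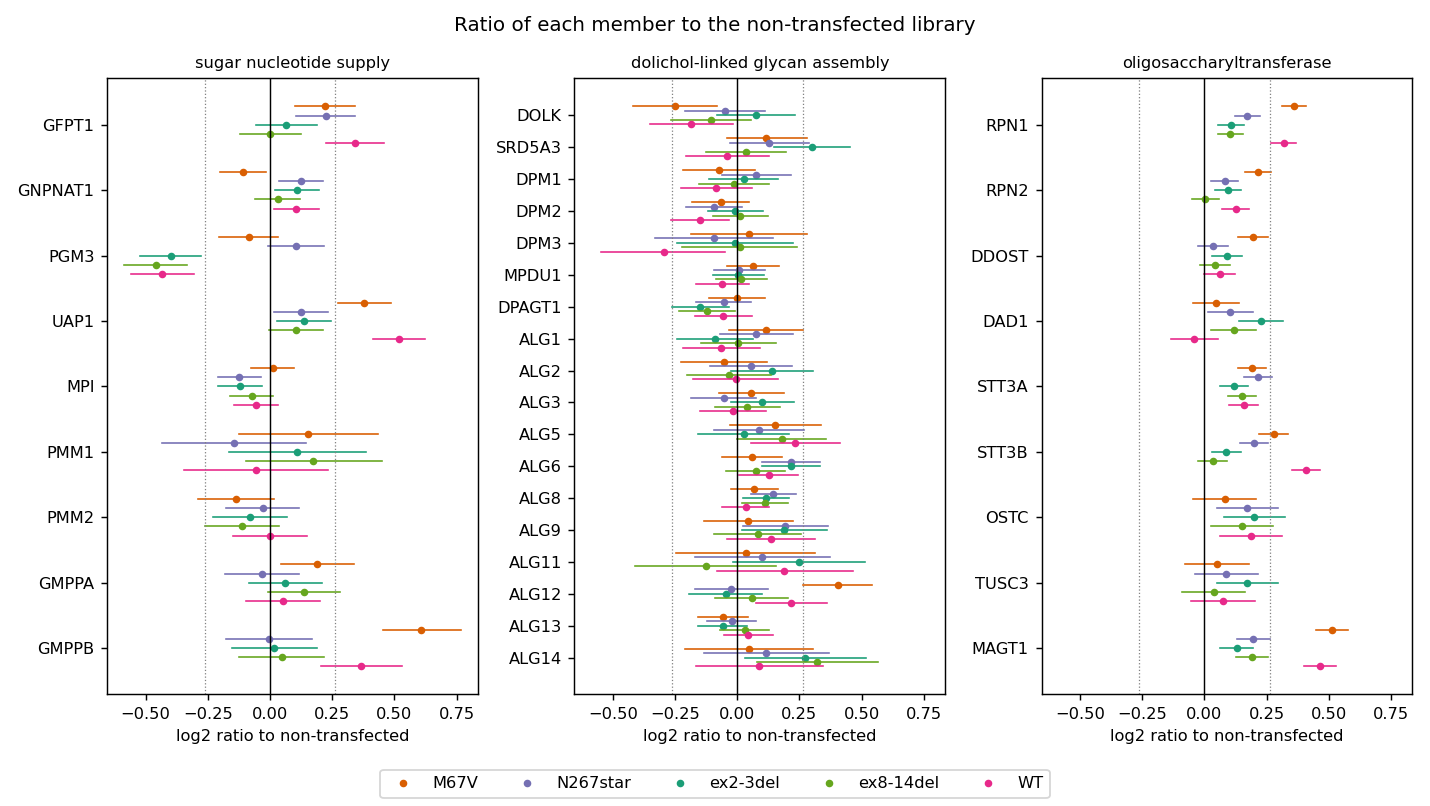
Log2 ratio of each of the 36 members to the non-transfected library, by stage, for the 5 transfected libraries, with exact 95% counting intervals as bars and dotted lines at 1.2-fold. UAP1, GMPPB, RPN1, STT3B and MAGT1 lie right of the dotted line in both WT and M67V, while most ALG genes lie close to 0.

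Sugar nucleotide supply was split between a few genes that were higher and others that were not. GFPT1 makes glucosamine-6-phosphate and is the rate-limiting enzyme of the hexosamine pathway. It stood at 75.6 CPM in M67V, 75.8 in N267star, 67.9 in ex2-3del, 64.9 in ex8-14del and 82.2 in WT, against 64.9 CPM in the non-transfected library. WT was the highest library and ex8-14del was level with the non-transfected one. The log2 ratio to non-transfected cells was 0.34 (0.22 to 0.46) in WT, 0.22 (0.10 to 0.34) in M67V, 0.22 (0.11 to 0.34) in N267star, 0.07 (-0.06 to 0.19) in ex2-3del and 0.00 (-0.12 to 0.12) in ex8-14del.

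UAP1 carries out the last step of the same branch and makes UDP-N-acetylglucosamine. Its level was 103 CPM in M67V, 86.7 in N267star, 87.4 in ex2-3del, 85.4 in ex8-14del and 114 in WT, against 79.5 CPM in the non-transfected library. WT and M67V were the 2 highest libraries, and the remaining alleles lay close together. UAP1 was 1.43-fold higher in WT than in non-transfected cells (log2 ratio 0.52, 0.42 to 0.62) and 1.30-fold higher in M67V (0.38, 0.27 to 0.48). Its log2 ratios in N267star, ex2-3del and ex8-14del were 0.12, 0.14 and 0.10, below the 1.2-fold size.

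The steps between GFPT1 and UAP1 did not follow them. GNPNAT1, which acetylates glucosamine-6-phosphate, had log2 ratios between -0.11 in M67V and 0.12 in N267star and was called in no comparison. The count ratio of UAP1 to GNPNAT1 within a library was 0.919 in M67V, 0.655 in N267star, 0.668 in ex2-3del, 0.689 in ex8-14del, 0.872 in WT and 0.655 in non-transfected cells. Relative to non-transfected cells this ratio was 1.40 times as high in M67V (1.27 to 1.55) and 1.33 times in WT (1.21 to 1.46), while the intervals of N267star, ex2-3del and ex8-14del included 1. Both genes are counted in the same library, so the scaling of libraries does not enter this ratio. The outcome depended on the reference gene. With MPI in place of GNPNAT1, the ratio was 1.29 times the non-transfected value in M67V (1.17 to 1.42). In WT it was 1.49 times that value (1.35 to 1.64). The intervals of the other alleles then excluded 1: N267star 1.19 (1.08 to 1.31), ex2-3del 1.195 (1.085 to 1.32) and ex8-14del 1.13 (1.03 to 1.24). MPI overlaps another expressed gene.

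PGM3, the phosphoacetylglucosamine mutase between those steps, was called lower in 3 libraries, but its count is uncertain. It stood at 69.4 CPM in M67V, 79.1 in N267star, 55.8 in ex2-3del, 53.5 in ex8-14del and 54.5 in WT, against 73.6 CPM in the non-transfected library. The libraries fell into a lower set of ex2-3del, ex8-14del and WT and a higher set of the others. Log2 ratios to non-transfected cells were -0.40 (-0.52 to -0.28) in ex2-3del, -0.46 (-0.59 to -0.34) in ex8-14del and -0.43 (-0.56 to -0.31) in WT.

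The gene body of PGM3 overlaps that of DOPEY1 on the opposite strand, both genes have fractional counts, and DOPEY1 moved the other way. DOPEY1 stood at 37.0 CPM in M67V, 33.6 in N267star, 51.9 in ex2-3del, 50.4 in ex8-14del and 56.3 in WT, against 33.7 CPM in non-transfected cells. The same 3 libraries that were low for PGM3 were high for DOPEY1. Summed, the 2 genes held 106, 113, 108, 104, 111 and 107 CPM in M67V, N267star, ex2-3del, ex8-14del, WT and non-transfected cells, and every interval of the summed ratio to non-transfected cells included equality. RWDD2A, which also overlaps PGM3, stayed between 11.1 and 12.5 CPM.

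**Figure D2:**
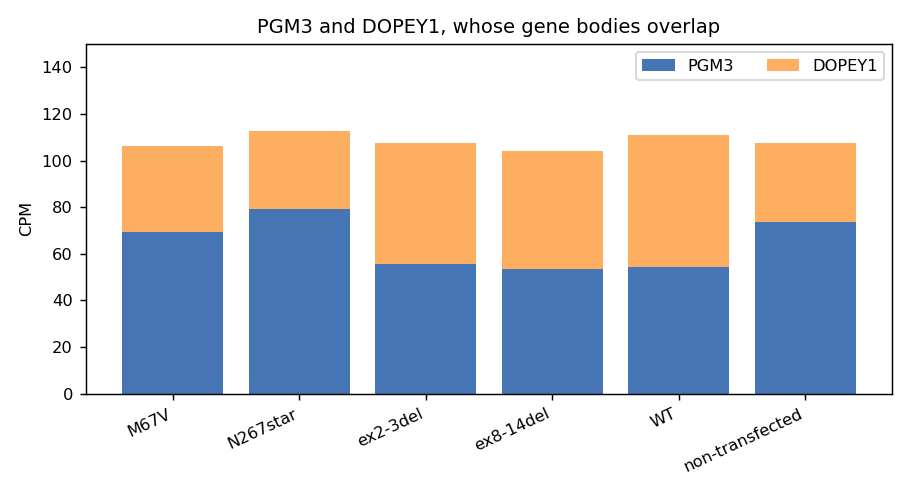
Stacked levels of PGM3 and DOPEY1 in CPM for each library, with M67V, N267star, ex2-3del, ex8-14del, WT and non-transfected from left to right. The share of each gene differs between libraries while the stacked total stays between 104 and 113 CPM.

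In the mannose branch, only GMPPB, which makes GDP-mannose, was called. Its level was 51.7 CPM in M67V, 33.8 in N267star, 34.3 in ex2-3del, 34.98 in ex8-14del and 43.7 in WT, against 33.9 CPM in non-transfected cells. M67V was the highest library, WT the next, and the other 4 lay close together. GMPPB was 1.53-fold higher in M67V than in non-transfected cells (log2 ratio 0.61, 0.45 to 0.77) and 1.29-fold higher in WT (0.37, 0.20 to 0.53). With libraries scaled to their total counts, the M67V log2 ratio was 0.58 and no longer reached 1.5-fold.

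GMPPB overlaps AMIGO3 on the same strand and RNF123 on the opposite one, which leaves its count uncertain. AMIGO3, a cell adhesion gene, stood at 53.6 CPM in M67V, 27.4 in N267star, 26.9 in ex2-3del, 29.4 in ex8-14del and 45.5 in WT, against 31.9 CPM in non-transfected cells. Both genes were thus highest in M67V and WT. The summed count of GMPPB and AMIGO3 had a log2 ratio of 0.68 (0.57 to 0.79) in M67V and 0.44 (0.32 to 0.55) in WT. RNF123, the most abundant of these genes, stood between 90.5 and 115 CPM. With it added, the summed ratio was 0.42 (0.35 to 0.50) in M67V and 0.25 (0.18 to 0.33) in WT, the latter under 1.2-fold. That sum was at -0.11 (-0.19 to -0.04) in N267star, and the intervals of ex2-3del and ex8-14del included equality. How far reads of one gene were counted for the other was not tested.

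GMPPA, the regulatory homologue of GMPPB, had log2 ratios between -0.03 and 0.19, and the isomerase MPI had ratios between -0.12 and 0.01. The phosphomannomutases PMM1 and PMM2 lay between -0.14 and 0.17, for PMM1, and at or below 0, down to -0.14, for PMM2. None of these 4 genes was called in any of the 9 pairs. Summed over the stage, sugar nucleotide genes stood at 655 CPM in M67V, 631 in N267star, 604 in ex2-3del, 597 in ex8-14del and 659 in WT, against 611 CPM in non-transfected cells. The sums were 7.20% higher in M67V, 3.30% higher in N267star and 7.80% higher in WT, and the intervals of ex2-3del and ex8-14del included equality. These sums include PGM3 and GMPPB, whose counts are uncertain. PGM3 entered at 55.8 CPM in ex2-3del, 53.5 in ex8-14del and 54.5 in WT, against 73.6 CPM in non-transfected cells. It entered at 69.4 CPM in M67V and 79.1 in N267star. These differences lay within counting error once PGM3 was summed with DOPEY1, and stage sums without PGM3 were not computed.

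**Figure D3:**
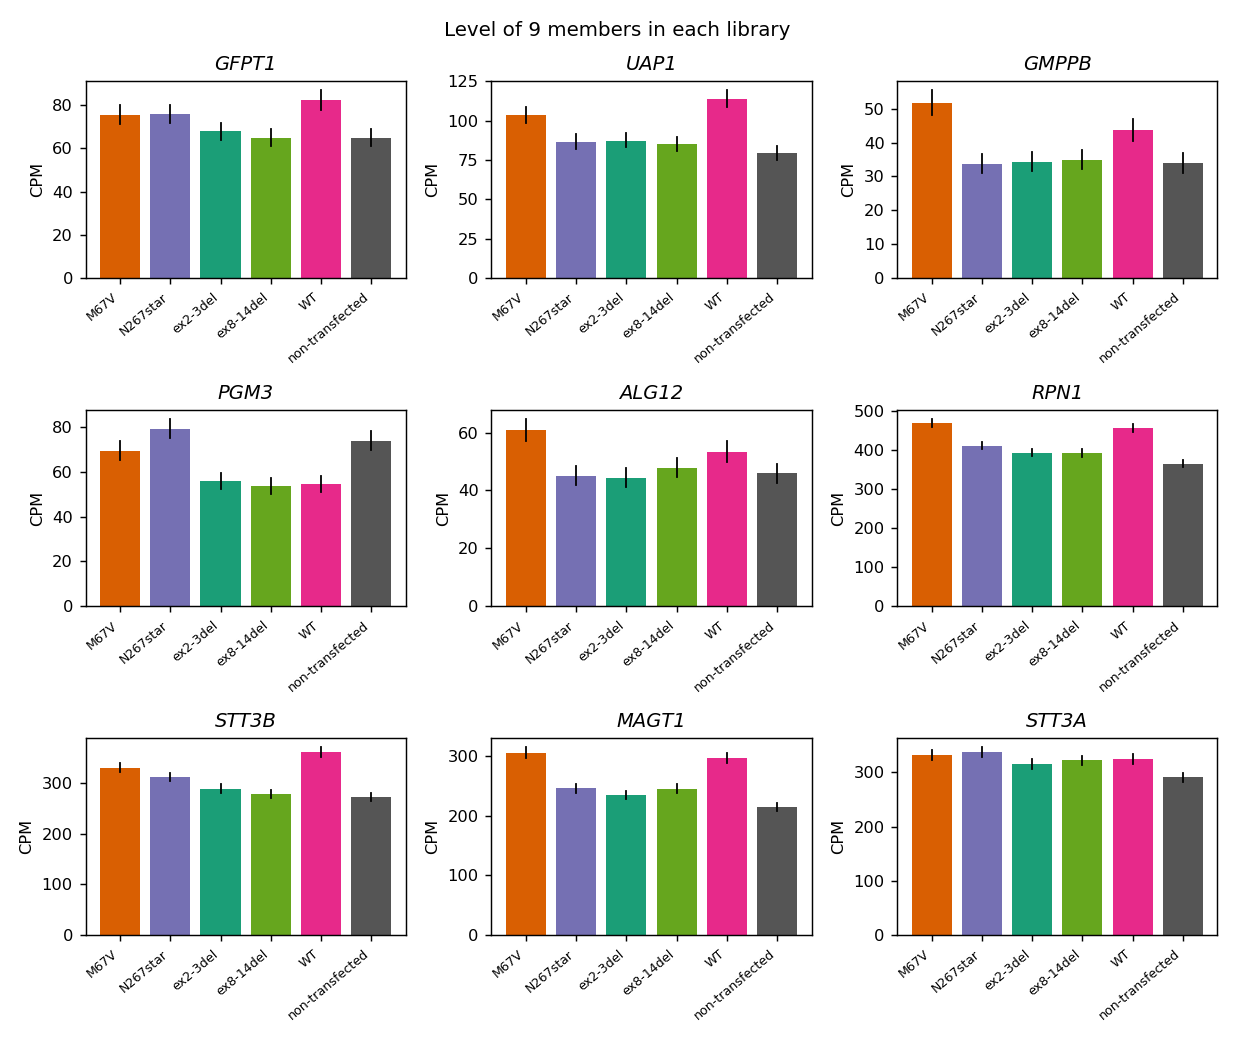
Levels in CPM of 9 members in each library, with exact 95% Poisson intervals as lines on the bars and axes starting at 0. UAP1, GMPPB, ALG12, RPN1, STT3B and MAGT1 have their 2 tallest bars in M67V and WT, GFPT1 has its tallest in WT, and STT3A differs little between the transfected libraries.

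The 18 genes of dolichol-linked glycan assembly showed small changes in their summed level. Their summed level was 976 CPM in M67V, 979 in N267star, 986 in ex2-3del, 970 in ex8-14del and 953 in WT, against 951 CPM in non-transfected cells. The largest excess over non-transfected cells was 3.61%, in ex2-3del, and the WT sum differed by 0.151% with an interval that included equality. The median log2 ratio of the stage was 0.05 in M67V, 0.07 in N267star, 0.05 in ex2-3del, 0.02 in ex8-14del and -0.01 in WT. With total-count scaling it was 0.015 in M67V, 0.012 in ex8-14del and -0.035 in WT, and without overlapping genes it was 0.11 in ex2-3del.

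In this stage, 5 of the 18 genes (27.8%) were called at 1.2-fold in at least 1 of the 9 pairs. That share is close to the background, which was 26.8% of the 12888 genes compared in all 9 pairs and 22.5% of those with at least 10 CPM in every library. Over all 36 members the count was 13 (36.1%). The other 13 assembly genes were DOLK, the dolichol kinase; DPM1 and DPM2, of dolichol-phosphate mannose synthase; MPDU1; DPAGT1, which starts the chain and is the target of tunicamycin; and ALG1, ALG2, ALG3, ALG5, ALG6, ALG8, ALG9 and ALG13. Their log2 ratios to non-transfected cells lay between -0.25, for DOLK in M67V, and 0.23, for ALG5 in WT. Within each of these genes the highest library exceeded the lowest by 1.07 to 1.25 times.

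ALG12, which adds a mannose in the ER lumen, was the 1 assembly gene called in M67V. It stood at 60.8 CPM in M67V, 45.1 in N267star, 44.4 in ex2-3del, 47.8 in ex8-14del and 53.4 in WT, against 45.9 CPM in non-transfected cells. M67V and WT were the 2 highest libraries, and the others lay together. The log2 ratio to non-transfected cells was 0.40 (0.27 to 0.54) in M67V and 0.22 (0.07 to 0.36) in WT, and the WT value did not reach 1.2-fold.

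CRELD2, on the far side of the shared element printed above, stood at 122 CPM in M67V, 46.6 in N267star, 45.8 in ex2-3del, 48.6 in ex8-14del and 114 in WT, against 44.6 CPM in non-transfected cells. The order of libraries put M67V and WT on top for both genes, with a log2 ratio for CRELD2 of 1.45 (1.33 to 1.58) in M67V and 1.345 (1.22 to 1.47) in WT. The RefSeq starts given above lie apart, but in the GENCODE annotation used for overlaps the gene bodies of ALG12 and CRELD2 overlap. No strand setting is stated, so reads of CRELD2 counted for ALG12 were not told apart from ALG12 transcript.

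The other calls in this stage were small and rested on fewer reads. DPM3, the membrane anchor of dolichol-phosphate mannose synthase, was lower in WT (log2 ratio -0.29, -0.55 to -0.05), at 15.1 CPM against 18.6 CPM in non-transfected cells. The other alleles stood at 19.2 CPM (M67V), 17.4 CPM (N267star), 18.4 CPM (ex2-3del) and 18.7 CPM (ex8-14del), so WT was the lowest library. SRD5A3, a polyprenol reductase of dolichol synthesis, was higher in ex2-3del (0.30, 0.15 to 0.45), at 46.7 CPM against 37.9 CPM in non-transfected cells.

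ALG14, part of the enzyme that adds the second N-acetylglucosamine, was higher in both deletion alleles, ex2-3del (0.27, 0.03 to 0.52) and ex8-14del (0.32, 0.08 to 0.56). It held 18.6 CPM in the first and 19.2 CPM in the second of these libraries, against 15.4 CPM in non-transfected cells. ALG5 makes dolichol-phosphate glucose. It held 32.8 CPM in M67V, 31.4 in N267star, 30.0 in ex2-3del, 33.4 in ex8-14del and 34.7 in WT, against 29.5 CPM in non-transfected cells. WT was the highest, but its ratio (0.23, 0.06 to 0.41) stayed under 1.2-fold, and ALG5 overlaps another expressed gene. ALG11 is a mannosyltransferase that overlaps UTP14C and has fractional counts. It held 13.4 CPM in M67V, 14.1 in N267star, 15.6 in ex2-3del, 12.0 in ex8-14del and 15.0 in WT, against 13.1 CPM in non-transfected cells. Its 1 call was lower in ex8-14del than in WT (-0.32, -0.60 to -0.04).

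The oligosaccharyltransferase was the stage with the largest summed and median ratio in all 5 libraries. Its summed level was 2365 CPM in M67V, 2181 in N267star, 2136 in ex2-3del, 2093 in ex8-14del and 2315 in WT, against 1970 CPM in non-transfected cells. All 5 transfected libraries exceeded the non-transfected one, by 20.0% in M67V, 10.7% in N267star, 8.40% in ex2-3del, 6.21% in ex8-14del and 17.5% in WT. The median log2 ratio over the 9 subunits was 0.20 in M67V, 0.17 in N267star, 0.12 in ex2-3del, 0.10 in ex8-14del and 0.16 in WT.

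The non-transfected library was the lowest of the 6 for 8 of the 9 subunits, where it was the lowest for 16.1% of all genes that reached 1 CPM in some library and 16.5% of those with at least 10 CPM. DAD1, a small subunit common to both forms of the enzyme, was the exception, with its lowest level in WT. Further subunits that are not among the members did not all share this order. KRTCAP2 was lowest in the non-transfected library, at 90.3 CPM. OST4 was lowest in WT, at 80.6 CPM against 91.0 CPM in non-transfected cells. TMEM258 was lowest in N267star, at 37.2 CPM against 39.6 CPM in non-transfected cells. OST4 and TMEM258 overlap other expressed genes. Since all ratios share the 1 non-transfected library, a low value in it raises all 5 comparisons together. Whether the difference lies in transfection, in ATF6 or in that 1 culture cannot be told apart.

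**Figure D4:**
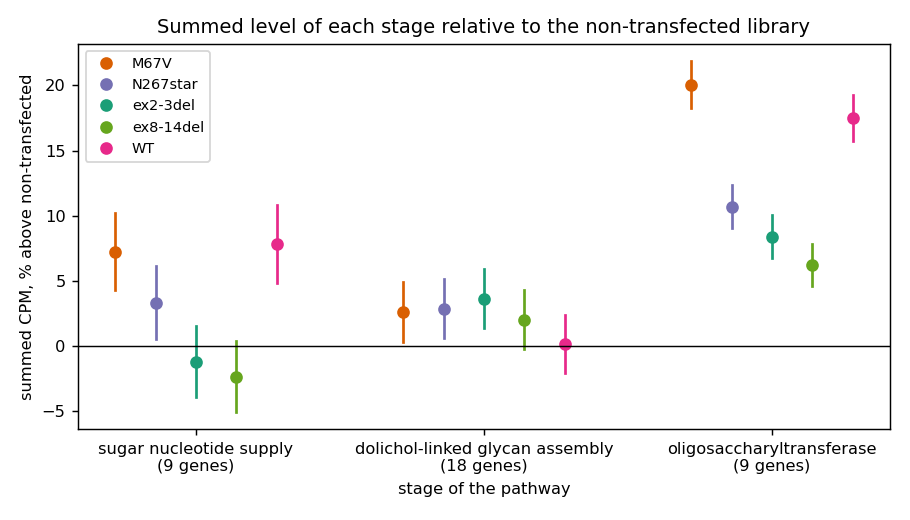
Summed CPM of each stage in the 5 transfected libraries, as percent above the non-transfected library, with exact 95% counting intervals as bars. The oligosaccharyltransferase lies between 6.21% and 20.0% above, while dolichol-linked glycan assembly lies between 0.151% and 3.61% above.

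Of the 9 subunits, 3 carried most of the excess in M67V and WT. MAGT1, an oxidoreductase subunit of the STT3B form, stood at 306 CPM in M67V, 246 in N267star, 234 in ex2-3del, 245 in ex8-14del and 296 in WT, against 214 CPM in non-transfected cells. M67V and WT were well above the other 3 transfected libraries, which in turn were above the non-transfected one. MAGT1 was 1.43-fold higher in M67V (log2 ratio 0.51, 0.45 to 0.58) and 1.38-fold higher in WT (0.47, 0.40 to 0.53). In N267star, ex2-3del and ex8-14del the ratios were 0.20 (0.13 to 0.26), 0.13 (0.06 to 0.20) and 0.19 (0.13 to 0.26).

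STT3B is the catalytic subunit that also glycosylates sites after the protein has left the translocon. Its level was 331 CPM in M67V, 313 in N267star, 290 in ex2-3del, 279 in ex8-14del and 362 in WT, against 273 CPM in non-transfected cells. The libraries formed a graded series, with WT at the top and ex8-14del next to the non-transfected library. STT3B was 1.33-fold higher in WT (0.41, 0.35 to 0.47) and 1.21-fold higher in M67V (0.28, 0.22 to 0.34), and with total-count scaling the M67V ratio was 0.25, under the 1.2-fold size.

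RPN1, ribophorin I, is a large subunit shared by both forms of the enzyme. It stood at 468 CPM in M67V, 411 in N267star, 393 in ex2-3del, 392 in ex8-14del and 455 in WT, against 365 CPM in non-transfected cells. M67V and WT again stood highest. RPN1 was 1.28-fold higher in M67V (0.36, 0.31 to 0.41) and 1.25-fold higher in WT (0.32, 0.27 to 0.37). Without RPN1, STT3B and MAGT1, a choice made after the values were seen, the summed excess over non-transfected cells was 12.7% in M67V, 8.28% in N267star, 8.95% in ex2-3del, 5.24% in ex8-14del and 7.46% in WT.

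The other 6 subunits differed less. STT3A is the catalytic subunit that works at the translocon, and it stood at 332 CPM in M67V, 338 in N267star, 316 in ex2-3del, 323 in ex8-14del and 324 in WT, against 291 CPM in non-transfected cells. Its log2 ratios, between 0.12 and 0.21, excluded equality in all 5 comparisons but never reached 1.2-fold, and its gene body overlaps those of CHEK1 and FEZ1. OSTC, which belongs to the STT3A form, held 65.3 CPM in M67V, 69.6 in N267star, 70.9 in ex2-3del, 68.5 in ex8-14del and 70.2 in WT, against 61.7 CPM in non-transfected cells. Its log2 ratios lay between 0.08 (-0.04 to 0.21) in M67V and 0.20 (0.08 to 0.32) in ex2-3del. RPN2 and DDOST, the remaining shared large subunits, were highest in M67V, at 0.22 (0.16 to 0.27) and 0.20 (0.14 to 0.26). TUSC3, the paralogue of MAGT1, lay between 0.04 and 0.17, and DAD1 between -0.04 in WT and 0.23 in ex2-3del.

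Paralogous subunits were also compared within each library. The count ratio of STT3B to STT3A was 0.995 in M67V, 0.927 in N267star, 0.917 in ex2-3del, 0.864 in ex8-14del and 1.12 in WT, against 0.937 in non-transfected cells. Relative to non-transfected cells it was 1.19 times as high in WT (1.13 to 1.26) and 1.06 times in M67V (1.004 to 1.12), and 0.923 times in ex8-14del (0.872 to 0.977). Relative to WT it was 0.892 times as high in M67V (0.846 to 0.942).

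The count ratio of MAGT1 to TUSC3 was 4.92 in M67V, 3.85 in N267star, 3.47 in ex2-3del, 3.97 in ex8-14del and 4.68 in WT, against 3.57 in non-transfected cells. Relative to non-transfected cells it was 1.38 times as high in M67V (1.25 to 1.52) and 1.31 times in WT (1.19 to 1.45). In N267star and ex2-3del the interval included 1, and in ex8-14del the ratio was 1.11 times as high (1.01 to 1.23). M67V and WT did not differ in this ratio beyond counting error (1.05, 0.954 to 1.16).

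**Figure D5:**
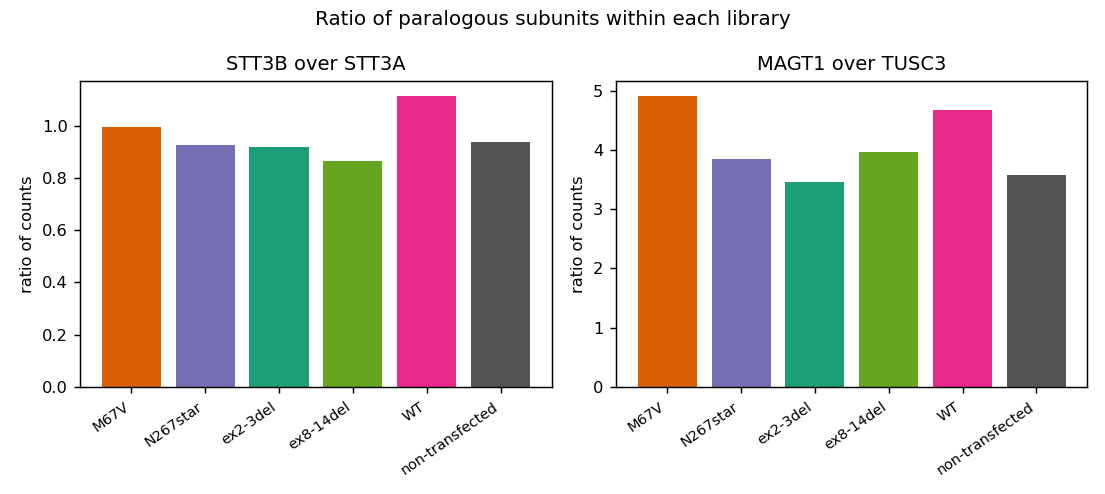
Ratio of counts of STT3B to STT3A and of MAGT1 to TUSC3 within each library, with M67V, N267star, ex2-3del, ex8-14del, WT and non-transfected from left to right and axes starting at 0. The STT3B to STT3A ratio is highest in WT at 1.12, and the MAGT1 to TUSC3 ratio is highest in M67V at 4.92.

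The mutant alleles were also set directly against WT, which leaves the non-transfected library out. These comparisons in turn share 1 WT library, so they do not repeat each other independently. In N267star, 3 members were lower than in WT at 1.2-fold, where 4.74% of all 13180 genes were, and 1 was higher, where 2.06% were. The 3 lower genes were UAP1 (-0.39, -0.49 to -0.29), GMPPB (-0.37, -0.53 to -0.21) and MAGT1 (-0.27, -0.33 to -0.21), and PGM3 was higher (0.54, 0.41 to 0.66). Summed with DOPEY1, the PGM3 ratio was 0.02 (-0.07 to 0.12), which ended that call. With total-count scaling the MAGT1 ratio was -0.25, under the 1.2-fold size.

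In ex2-3del, 6 members were lower than in WT, or 16.7% against 4.99% of all 13178 genes, and 3 were higher, against 3.27%. The lower genes were GFPT1, UAP1, GMPPB, ALG12, STT3B and MAGT1, with log2 ratios between -0.38 for UAP1 and -0.26 for ALG12, and the higher ones were SRD5A3 (0.34), DPM3 (0.29) and DAD1 (0.27). The ALG12 call ended with DESeq2 size factors (-0.26) and with total counts (-0.24), and the GFPT1 call with total counts (-0.25). In ex8-14del, 6 were lower, or 16.7% against 5.44% of all 13189 genes, and 1 was higher, DPM3 (0.30), against 3.82%. The lower genes were GFPT1 (-0.34), UAP1 (-0.41), GMPPB (-0.32), ALG11 (-0.32), STT3B (-0.38) and MAGT1 (-0.27), and the MAGT1 call ended with total counts (-0.26).

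M67V and WT differed in fewer members. In M67V, 0 members were lower than in WT at 1.2-fold, against 1.93% of all 13214 genes, and 2 were higher, against 2.54%. The 2 were PGM3 (0.35, 0.22 to 0.48) and DPM3 (0.34, 0.10 to 0.59). Summed with DOPEY1, the PGM3 ratio was -0.06 (-0.16 to 0.04), so that call ended and its sign turned. Below that size, the M67V level of GMPPB exceeded the WT level (0.24, 0.10 to 0.39), as did that of ALG12 (0.19, 0.05 to 0.32). STT3B (-0.13, -0.18 to -0.08), UAP1 (-0.14, -0.24 to -0.04) and GFPT1 (-0.12, -0.24 to -0.01) stood lower in M67V than in WT.

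Over all 6 libraries, WT and M67V were the 2 highest for 7 of the 36 members, or 19.4%, where they were the 2 highest for 10.7% of 13394 genes. The 7 were UAP1, GMPPB, ALG12, RPN1, RPN2, STT3B and MAGT1, and GMPPB, ALG12 and RPN2 overlap another expressed gene. They were the 2 lowest for DOLK and DPM1, or 5.56% of the members, where they were for 8.73% of genes.

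A further 21 genes linked to N-glycans, outside the 36, were compared with non-transfected cells in the same way. Some of them, MLEC and UGGT1 among them, act after the transfer and so lie outside the 3 stages. In WT, 5 of the 21 were higher at 1.2-fold (23.8%, against 5.5% of all genes) and 1 was lower (4.76%, against 3.85%). In M67V, 4 were higher (19.0%, against 4.82%) and 0 lower (against 1.92%). In N267star 2 were higher (9.52%, against 2.66%), in ex8-14del 1 was (4.76%, against 2.46%), and the count for ex2-3del was 0 (against 2.01%). None of the 21 was lower in these 3 alleles. DOLPP1, a dolichyl pyrophosphate phosphatase that recycles the carrier, stood at 80.4 CPM in M67V, 58.4 in N267star, 56.7 in ex2-3del, 71.8 in ex8-14del and 74.0 in WT, against 51.8 CPM in non-transfected cells. It was 1.55-fold higher in M67V, 1.43-fold in WT and 1.39-fold in ex8-14del, and its ex8-14del level was within counting error of the WT level (-0.04, -0.16 to 0.07).

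Besides DOLPP1, the genes called higher in both WT and M67V were NUS1, MLEC and UGGT1. NUS1, a subunit of the enzyme that makes the dolichol chain, was called in N267star too, being 1.21-fold higher in M67V, 1.204-fold higher in N267star and 1.35-fold higher in WT. The other gene called in N267star was UGGT2, a homologue of UGGT1 (0.31, 0.13 to 0.49). MLEC, an ER lectin that binds glucosylated glycans, was 1.26-fold higher in WT and 1.31-fold higher in M67V. UGGT1, which reglucosylates misfolded glycoproteins, was 1.32-fold higher in both. UGP2, which makes UDP-glucose, was called higher in WT (0.29, 0.16 to 0.43), with ratios of 0.17 (0.03 to 0.31) in M67V and 0.26 (0.13 to 0.40) in N267star, and the lower gene in WT was AMDHD2 (-0.29, -0.49 to -0.09), a deacetylase of the hexosamine pathway.

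The authors' deposited tables, made with DESeq from 1 library per side, gave an adjusted p below 0.05 for 3 members in WT, against 1.31% of the 16850 genes with a value, and for 3 in M67V, against 1.38% of 16758. The count was 0 members in N267star, ex2-3del and ex8-14del, where 0.101%, 0.161% and 0.274% of genes were below that level. For WT these were MAGT1 (0.000636), UAP1 (0.00103) and STT3B (0.00453), and for M67V they were MAGT1 (8.17e-05), GMPPB (0.00212) and RPN1 (0.0231). How the spread behind those values was obtained without replicates is not stated in the labels.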

How the data were processed

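The 6 libraries, 1 per group, were grouped by the labelled genotype. The values used are expected counts, as the authors deposited them, 1 row per gene symbol. Aligner, counting program and strand setting are not given in the sources used. GRCh37.p13 and DESeq are named in the submitters' processing notes. The authors also deposited comparison sheets, whose adjusted p-values are copied where named. The placeholder 0.028 for genes without reads was set to 0, counts were rounded, 28 rows with date-like names were left out and rows sharing a symbol were summed. The 16 other columns of per-sample values were not used.

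Library sizes were scaled with TMM factors (edgeR 4.0.16, R 4.3.3). A prior count of 2 entered each log2 ratio, with exact conditional binomial (Clopper-Pearson) 95% intervals. Without molecular identifiers, PCR copies count as reads, so intervals cover counting error only. The floor of 3 counts is 0.178 to 0.187 CPM. Further steps used Python 3.11.15, scipy 1.17.1 and pandas 2.3.3. The criteria were tried on simulated counts that held counting error only, which cannot show how they behave when cultures vary. Gene overlap came from GENCODE on GRCh38, another build than the authors', and served only to tell neighbours: 26.1% of expressed genes (at least 5 CPM in any library) overlap another one.

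The members and gene lists were chosen with earlier results of these data known. All 36 members could be named. Full values go to members at 1.5-fold in any pair and to the 4 of each stage with the largest absolute ratio of WT to non-transfected cells, and STT3A, ALG14, SRD5A3 and the overlapping genes were added after their values were seen. Alternatives were DESeq2 1.42.0 size factors, total counts, other low-count filters and prior counts, and leaving out overlapping genes.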

Additional observations from a re-analysis of the deposited data

How the results depend on the processing

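Of 180 counts of members recomputed under alternatives, 172 stayed within 1.5 times. Much of this was fixed in advance. The low-count filters could not alter a count, because all 36 members held at least 10 CPM, and nearly all counts at 1.5-fold were 0 from the start. With libraries scaled to total counts, 0 members reached 1.5-fold in M67V against non-transfected cells and 1 was lower at 1.2-fold. Without the 12 members that overlap another expressed gene, 0 members reached 1.5-fold in M67V, 0 were lower at 1.2-fold in either deletion allele, and 1 was lower in WT. Against WT, 1 was then higher in M67V and 0 in N267star. Of 180 medians, 156 moved by less than the distance from the middle to an end of the counting interval for the ratio of summed counts. That interval belongs to a sum and not to a median, and the low-count filter could not move any median.

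With total-count scaling, the medians against non-transfected cells were 0.0294 (all members), 0.0149 (assembly) and 0.163 (oligosaccharyltransferase) in M67V, and 0.0323 (all members) and 0.134 (oligosaccharyltransferase) in WT. Against WT they were 0.0136 in N267star (all members), and in ex2-3del 0.0478 (all members) and -0.0043 (oligosaccharyltransferase). Without overlapping members, the all-member medians were 0.110 in N267star and 0.109 in ex2-3del against non-transfected cells, and -0.0075 in M67V, 0.0149 in N267star and 0.0861 in ex2-3del against WT. Sugar nucleotide medians were then 0.124 in N267star, 0.108 in ex2-3del, 0.103 in ex8-14del and 0.105 in WT against non-transfected cells, and -0.121 in M67V and 0.0029 in ex2-3del against WT. Assembly medians were 0.109 in ex2-3del against non-transfected cells, and -0.0154 in M67V and 0.129 in ex2-3del against WT. Oligosaccharyltransferase medians were 0.187 in WT against non-transfected cells and 0.0133 in ex2-3del against WT.

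A few checks were chosen after seeing the data. Summed with DOPEY1, the PGM3 log2 ratio was 0.0046 in ex2-3del, -0.05 in ex8-14del and 0.0468 in WT, so the lower calls ended and the sign turned in ex2-3del and WT. Against WT the summed ratio was -0.0587 in M67V, where the sign turned, and 0.0245 in N267star, and both higher calls ended. Without RPN1, STT3B and MAGT1 the oligosaccharyltransferase sum was 1.13 times the non-transfected level in M67V, 1.08 times in N267star and 1.07 times in WT. Restricting the background to 10 CPM is given above. Single values were recomputed only for the members that the rule gave full values, so the calls of SRD5A3, ALG14 and DAD1 were not rechecked singly. Of 108 such values for calls at 1.2-fold, 102 kept the call. The other 6 fell below that size with the same sign, all named with the results above. A further 216 values of the same members had no call, and none gained one. Over all members, total-count scaling did add calls at 1.2-fold. The number lower in M67V than in non-transfected cells rose from 0 to 1. The number higher in ex2-3del than in WT rose from 3 to 4. Depth limits the lowest members most, and the PMM1 log2 ratio of WT to non-transfected cells had an interval of -0.35 to 0.23. No paired analysis was possible because each group held 1 library.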
